A study of Homo sapiens with 9 samples.

Results

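The histone genes described here are the 9 replication-independent histone genes H3F3A, H3F3B, H2AFZ, H2AFV, H2AFY, H2AFX, H2AFJ, H1FX and H1F0, taken by their symbols from the 36601 genes of the deposited matrices. All 9 were found once in every library. They were followed in 6 single-cell libraries of the human osteosarcoma line U2OS. RPB1, the largest RNA polymerase II subunit, was tagged in 3 of them with HaloTag, an enzyme-derived protein that captures a synthetic ligand, and in 3 with Dendra2, a fluorescent protein whose colour can be switched by light. The genotypes were HaloTag-RPB1-25R, HaloTag-RPB1-52R, HaloTag-RPB1-70R, Dendra2-RPB1-25R, Dendra2-RPB1-52R and Dendra2-RPB1-70R, where 25R, 52R and 70R give the number of repeats in the RPB1 C-terminal domain (CTD). Every genotype was grown for 6 days with 1 µg/ml of α-amanitin, which blocks the polymerase, so no untreated and no untagged cells enter a comparison. The 9 labelled samples were 6 libraries, because the 3 HaloTag libraries were each sequenced in 2 runs that the deposited matrices merge. The HaloTag and Dendra2 libraries were sequenced on different dates, so tag and sequencing date cannot be told apart. Each genotype was 1 library, and the sources used here do not say whether a cell line was 1 clone.

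After filtering, the libraries held 2718 to 4677 cells and 52553686 to 58442223 unique molecular identifiers (UMIs, each marking 1 captured RNA molecule), with a median of 10812 to 18739 UMIs per cell. No pair of libraries shared more than 7 cell barcodes. The labels call the cells epithelial. CPM is a gene's UMIs relative to all UMIs of a library, on the counts-per-million scale. The 10 epithelial markers summed to 855 to 1583 CPM, nearly all of it from the keratins KRT18 and KRT8, while 5 of them, with the cadherin CDH1 among these and 1 at 0 UMIs, stayed under 1 CPM in every library. The 10 osteoblast and mesenchymal markers summed to 2958 to 4089 CPM, most of it from the filament gene VIM, and 3 of them (COL1A2, SP7 and TWIST1) stayed under 1 CPM in every library. The 8 leukocyte markers summed to at most 2.52 CPM.

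Most histones are made only while DNA is being copied, from gene clusters whose mRNAs end in a stem-loop in place of a poly(A) tail. Replacement histones are made throughout the cell cycle from genes outside those programmes, have polyadenylated mRNAs, and are deposited by dedicated chaperones. H3.3 (H3F3A, H3F3B) is placed at active genes and telomeres, and H2A.Z (H2AFZ, H2AFV) near promoters. H2AX (H2AFX) is phosphorylated around DNA breaks, and macroH2A (H2AFY) carries a large extra domain and marks silent chromatin. H2AFJ encodes an H2A variant, and H1F0 and H1FX encode linker histones that bind DNA between nucleosomes. Since the library chemistry primes on poly(A), the polyadenylated mRNAs of these genes are measured directly, whereas cluster histone mRNAs are counted only where they carry adenosines.

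The 3′ ends of the 9 genes were read from the GENCODE release 44 transcripts on GRCh38, the build named in the submitters' processing notes, with all 9 gene IDs matched. The searched stem-loop was 16 bases long: arms of 6 complementary bases that begin with GG and end with CC around a loop of 4 bases that begins with TT. It occurred in the 3′ untranslated region of 63 of 68 cluster histone genes (92.6%), of 110 of all 19229 protein-coding genes of the matrices (0.572%), and of 1 of the 9 replacement histone genes, H2AFX. In H2AFX it lies at chr11:119094893-119094918 on the minus strand (shown with 5 flanking bases on either side), 49 bases after the stop codon and 1024 bases before the annotated transcript end. A polyadenylation hexamer, AATAAA or ATTAAA on the transcript strand, lay in the last 50 bases of 7 of the 9 transcripts, of 78.8% of all protein-coding genes, and of 2 of the 68 cluster histone genes. H2AFV and H2AFY had neither hexamer in that window. The stem-loop of H2AFX is shown beside those of 2 highly counted cluster genes, with the arms in capitals, and beside the hexamers (capitals) of 4 replacement genes, because the 3′ end is what separates these genes from the cluster genes.
H2AFX stem-loop, chr11:119094893-119094918 (-): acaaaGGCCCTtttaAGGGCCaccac
HIST1H4C stem-loop, chr6:26104312-26104337 (+): ccaaaGGCCCTtttcAGGGCCgctca
HIST2H2AC stem-loop, chr1:149887386-149887411 (+): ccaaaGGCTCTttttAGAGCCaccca
H2AFX hexamer, chr11:119093883-119093908 (-): gactaattttATTAAAggattgtttt
H2AFZ hexamer, chr4:99948092-99948117 (-): ggataagttcAATAAAggtcatatcc
H3F3B hexamer, chr17:75776438-75776463 (-): atgagactaaAATAAAatttttgaag
H1FX hexamer, chr3:129314777-129314802 (-): ttttgggcacAATAAAgcgtttaaac
H2AFX holds both kinds of end signal in its 1 exon, and priming on poly(A) favours the form that ends at the hexamer. How much H2AFX RNA ends at the stem-loop was not measured. All H2AFX levels given below leave such RNA uncounted where it carries no adenosines.

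H3F3A (chr1:226061851-226072019, 4 exons) and H3F3B (chr17:75776434-75785893, 4 exons) encode the same protein: all 136 residues translated from the annotated coding sequences were identical, while the coding bases matched at 78.4% of positions. H2AFZ (chr4:99948086-99950355, 5 exons) and H2AFV (chr7:44826791-44848087, 5 exons) differed at 3 of 128 residues and matched at 80.5% of coding bases. H1FX (chr3:129314771-129316286) and H1F0 (chr22:37805229-37807432), each of 1 exon, shared 32.9% of aligned residues. H2AFX (chr11:119093874-119095465) and H2AFJ (chr12:14774405-14778002) also have 1 exon in the annotated main transcript, and H2AFY (chr5:135334381-135399914) has 9. The sources used here do not say how reads shared with processed pseudogenes of H3.3 or H2A.Z were assigned, so levels of those 4 genes are uncertain to that extent.

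RefSeq promoter windows on GRCh38.p14, from 250 bases before to 50 bases after a transcription start, were listed for 8 of the 9 genes. The windows of H2AFX, H2AFZ and H1FX are printed as examples. These genes were higher in both the S and the G2/M classes described further on. So were H2AFV, H2AFY and H1F0, for which no window is printed. Capitals mark the letters CCAAT on either strand.
H2AFX promoter, chr11:119095416-119095715 (-): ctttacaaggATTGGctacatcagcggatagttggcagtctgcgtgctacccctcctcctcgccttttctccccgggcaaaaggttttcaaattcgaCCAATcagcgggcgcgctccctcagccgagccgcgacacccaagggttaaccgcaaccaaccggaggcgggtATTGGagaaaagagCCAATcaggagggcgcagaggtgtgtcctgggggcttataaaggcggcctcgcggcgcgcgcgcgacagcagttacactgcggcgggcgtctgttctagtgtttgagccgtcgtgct
H2AFZ promoter, chr4:99950226-99950525 (-): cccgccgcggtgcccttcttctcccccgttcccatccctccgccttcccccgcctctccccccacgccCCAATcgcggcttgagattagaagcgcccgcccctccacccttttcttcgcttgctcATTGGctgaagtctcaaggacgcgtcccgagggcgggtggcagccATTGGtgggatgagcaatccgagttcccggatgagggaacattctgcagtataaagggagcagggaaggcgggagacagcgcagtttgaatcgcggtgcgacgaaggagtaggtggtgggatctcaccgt
H1FX promoter, chr3:129316237-129316536 (-): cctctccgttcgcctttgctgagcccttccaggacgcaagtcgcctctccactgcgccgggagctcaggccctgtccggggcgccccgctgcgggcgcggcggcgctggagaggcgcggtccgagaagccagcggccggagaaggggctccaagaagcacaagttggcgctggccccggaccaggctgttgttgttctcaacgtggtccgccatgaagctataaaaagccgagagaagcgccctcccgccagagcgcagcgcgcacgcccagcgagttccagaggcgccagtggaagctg
The letters CCAAT, on either strand, occurred 4 times in the window of H2AFX, 3 times in that of H2AFZ and 0 times in that of H1FX, and at least once in 34.6% of all 35116 listed promoters. They also occurred 4 times in the windows of H2AFV and H3F3B, 3 times in that of H2AFJ, 2 times in 1 of 2 windows of H2AFY and 1 time in 3 of 4 windows of H3F3A. In all, 9 of the 12 windows and 7 of the 8 genes held them. The letters TATAAA, searched on both strands, were present in the windows of H2AFX, H2AFZ and H1FX, 31 bases before the start in each, and in that of H3F3B, 29 bases before the start, against 11.5% of all promoters. The letters TTTGAA, searched on both strands, were present in the windows of H2AFX and H2AFZ, against 15.2% of all promoters. No motif's letters lie within another's, and a match describes the sequence only.

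The 9 genes ranged in level from 2188 CPM for H2AFZ in the Dendra2 52R library to 26.0 CPM for H2AFJ in the HaloTag 70R library. Levels are CPM, scaled with edgeR's TMM factors, counted at 3′ ends and so do not grow with transcript length. H2AFZ had the highest mean over the 6 libraries (1662 CPM), followed by H3F3B (1222 CPM) and H3F3A (1134 CPM), and the ranges of these 3 genes overlapped. H2AFV, at 456 to 675 CPM, stood below H3F3A and above H1FX in every library. H1FX, H1F0, H2AFY and H2AFX overlapped in pairs of neighbours. H2AFJ, at no more than 60.3 CPM, stood below H2AFX, which was never under 79.1 CPM. H2AFZ, H3F3B and H3F3A were each above the 99th percentile of the 18069 genes tested (99.4, 99.3 and 99.3), and H2AFJ was at percentile 81.0.

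**Figure D1:**
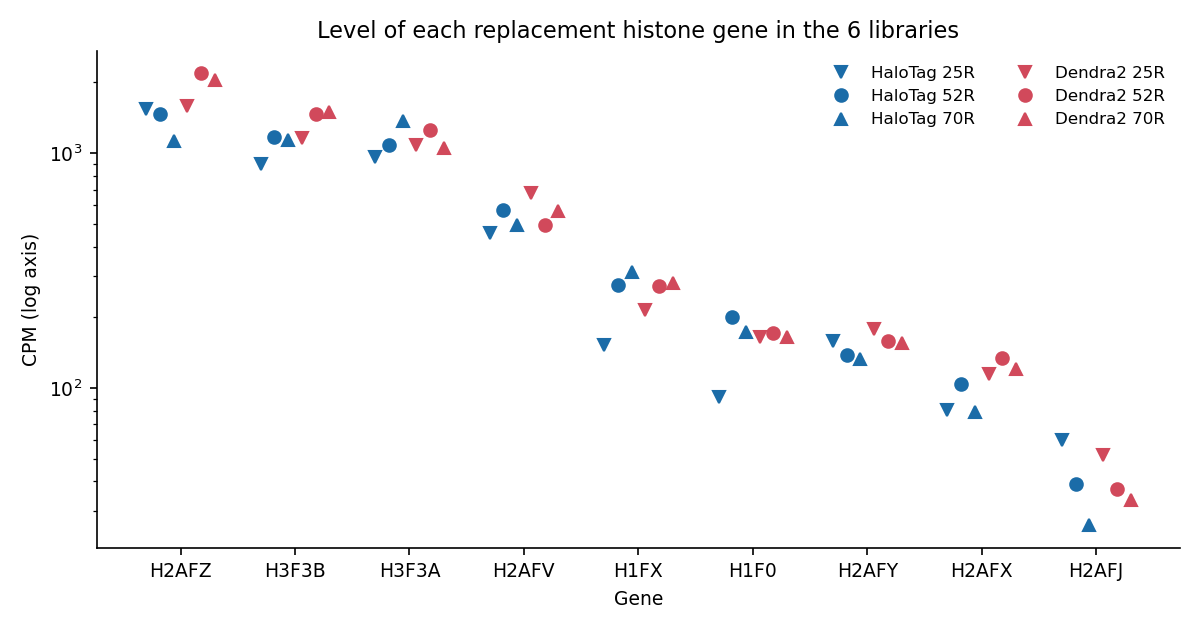
Level of the 9 genes in CPM (log axis), with 1 point per library, blue for HaloTag and red for Dendra2, and the marker shape giving the CTD length. H2AFZ reached 2188 CPM, H2AFJ stayed at or under 60.3 CPM, and the HaloTag 25R library had the lowest H1FX (153 CPM) and H1F0 (91.3 CPM).

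Between tags, none of the 9 replacement histone genes passed the test, in a comparison that asks what tagging RPB1 with HaloTag or Dendra2 goes with. The edgeR quasi-likelihood test with Benjamini-Hochberg adjustment at 0.05 called 0 of 9, against 0.26% of all 18069 genes, and 3 of 9 had an unadjusted p under 0.05, against 19.5% of all genes. All 9 estimates were below 0, with a median of -0.18 on the log2 scale against 0.03 for all genes. With library totals in place of TMM factors, which moved the median of all genes to 0.11, H3F3A (0.08) and H2AFJ (0.06) turned above 0. The 39 cluster histone genes tested had a median of -2.03, and 24 of them were called lower. Both tag groups had 3 libraries, and DESeq2's Wald test, with 7.03% of its 15967 genes called, called 1 of the 9.

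H2AFX, the H2A variant phosphorylated at DNA breaks, was that gene. With HaloTag it was found at 80.9 CPM (25R), 104 CPM (52R) and 79.1 CPM (70R), and with Dendra2 at 115, 134 and 120.2 CPM in that order. All HaloTag values lay below all Dendra2 values, as they did for 11.6% of all genes. With library totals in place of TMM factors the groups just overlapped, at 109 CPM in the HaloTag 52R library and 108 CPM in the Dendra2 25R library. The log2 difference was -0.49 ± 0.12 (SE), with an edgeR adjusted p of 0.135 and a DESeq2 adjusted p of 0.0234. In cells called neither S nor G2/M, where edgeR called 110 of 15410 genes, the difference was -1.34, with an edgeR adjusted p of 0.0389. Summed libraries also differ in their makeup of cell cycle classes, described further on, and the part of that makeup in the tag differences was not tested beyond this value.

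H2AFZ, the more abundant H2A.Z gene, stood at 1538, 1473 and 1129 CPM with HaloTag and at 1585, 2188 and 2058 CPM with Dendra2. The groups did not overlap on this scale, though the 25R libraries differed by only -0.04 on the log2 scale and the 70R libraries by -0.87. With library totals in place of TMM factors they did overlap, and the 25R pair changed order (1558 CPM with HaloTag and 1496 CPM with Dendra2). The log2 difference was -0.49 ± 0.18, with an edgeR adjusted p of 0.212. H2AFV, the other H2A.Z gene, stood at 456, 573 and 495 CPM with HaloTag and at 675, 495 and 566 CPM with Dendra2. Its groups overlapped, and its log2 difference was -0.18 ± 0.17.

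H3F3B, an H3.3 gene, stood at 901, 1166 and 1137 CPM with HaloTag and at 1159.9, 1468 and 1501 CPM with Dendra2. Within each CTD length the HaloTag library was the lower one, but the HaloTag 52R value lay just above the Dendra2 25R value. The log2 difference was -0.37 ± 0.11, with an edgeR adjusted p of 0.177. H3F3A, which encodes the same protein, stood at 965, 1083 and 1364 CPM with HaloTag and at 1087, 1252 and 1054 CPM with Dendra2. The HaloTag library was the lower one for 25R and 52R and the higher one for 70R, and the log2 difference was -0.0031 ± 0.16.

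The macroH2A gene H2AFY stood at 159, 138 and 133 CPM with HaloTag and at 178, 159 and 156 CPM with Dendra2, a log2 difference of -0.20 ± 0.11. H2AFJ stood at 60.3, 38.9 and 26.0 CPM with HaloTag and at 52.1, 37.1 and 33.4 CPM with Dendra2. In both tags H2AFJ was highest in the 25R library and lowest in the 70R library. The linker histone gene H1FX stood at 153, 275 and 311 CPM with HaloTag and at 215, 273 and 281 CPM with Dendra2. H1F0, the other linker histone gene, stood at 91.3, 200.5 and 174 CPM with HaloTag and at 166, 172 and 165 CPM with Dendra2. For both linker genes the HaloTag 25R library was lowest of the 6. The tag differences of H1FX and H1F0 were -0.11 ± 0.16 and -0.18 ± 0.22, and turned to 0.06 and 0.13 without the HaloTag 25R library and likewise without the Dendra2 25R library.

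**Figure D2:**
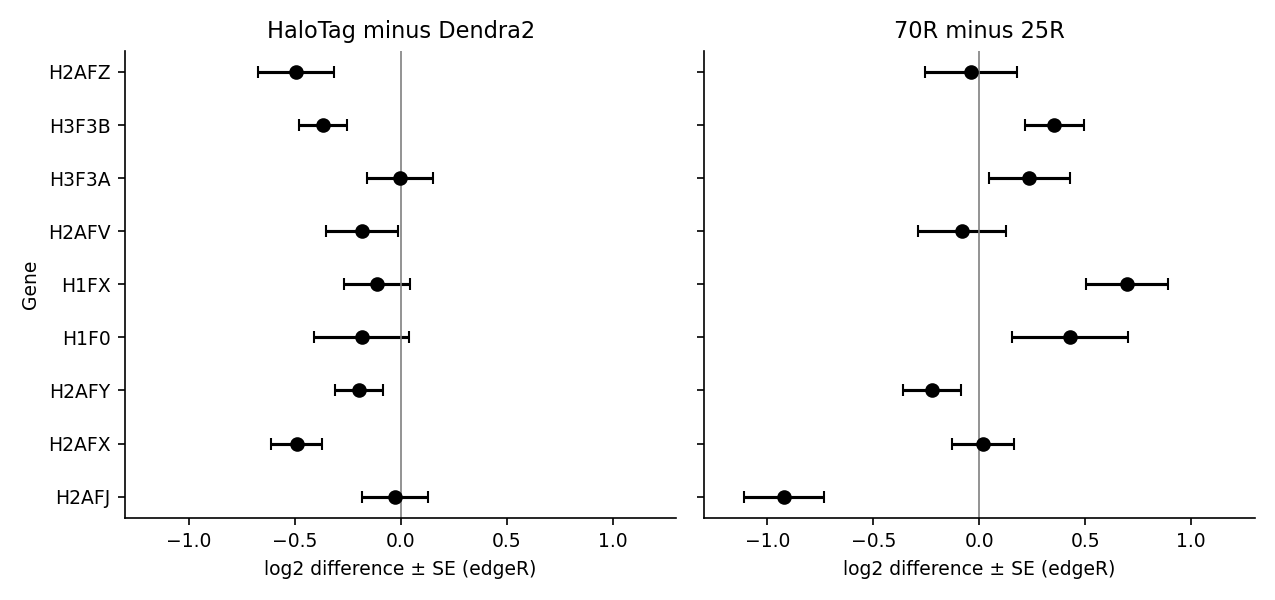
Log2 difference of each gene with its standard error (edgeR), for HaloTag minus Dendra2 on the left and 70R minus 25R on the right. The tag differences run from -0.49 (H2AFZ and H2AFX) to -0.0031 (H3F3A), and H2AFJ (-0.92) and H1FX (0.70) lie at opposite ends on the right.

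Between CTD lengths, again none of the 9 genes passed the test. The edgeR test called 0 of 9 between 25R and 52R, against 0.0443% of all genes. It called 0 of 9 between 70R and 52R and between 70R and 25R, against 0% of all genes in both. At an unadjusted p under 0.05 there were 3 of 9 between 25R and 52R (12.7% of all genes), 0 between 70R and 52R, and 3 between 70R and 25R (12.3% of all genes). These comparisons have 2 libraries per CTD length, 1 per tag, and 2 residual degrees of freedom.

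H2AFJ had the largest CTD difference of the 9 genes, at -0.92 ± 0.19 on the log2 scale from 25R to 70R. It was -1.21 within the HaloTag libraries and -0.64 within the Dendra2 libraries. Its edgeR adjusted p was 0.233 and its DESeq2 adjusted p 0.00805, where DESeq2 called 2.69% of all genes. H1FX was 0.70 ± 0.19 higher on the log2 scale with 70R than with 25R (1.02 within HaloTag and 0.38 within Dendra2), with an edgeR adjusted p of 0.294. H3F3B was 0.35 ± 0.14 higher with 70R than with 25R, with an edgeR adjusted p of 0.387.

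With 25R against 52R, H1FX differed by -0.58 ± 0.19, H2AFJ by 0.56 ± 0.19, H1F0 by -0.57 ± 0.27 and H3F3B by -0.36 ± 0.14 on the log2 scale, with edgeR adjusted p from 0.320 to 0.449. The H1F0 difference was -1.13 within HaloTag and -0.05 within Dendra2. Without the Dendra2 25R library, where 25R is the HaloTag library alone, the H1F0 difference was -1.08. Without the HaloTag 25R library, where 25R is the Dendra2 library alone, it was -0.10. The 25R minus 52R difference of H2AFV was -0.33 within HaloTag and 0.45 within Dendra2, and the 70R minus 52R difference of H3F3A was 0.33 and -0.25. With 1 library per genotype these tag-by-CTD differences were not tested.

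Genes that act on these histones were counted from lists for H3.3 deposition, H2A.Z exchange, DNA damage signalling through H2AX and histone mRNA processing. Between tags, the edgeR test called 0 of 8 H3.3 deposition genes, 0 of 12 H2A.Z exchange genes, 0 of 9 H2AX signalling genes, 0 of 8 genes of replication-coupled assembly, 0 of 9 general histone chaperones and 0 of 7 stem-loop processing genes. Their median log2 differences were -0.08, -0.05, -0.06, -0.03, -0.17 and -0.07, against 0.03 for all genes. An unadjusted p under 0.05 was found for 1, 3, 3, 2, 3 and 1 of them in that order, where 19.5% of all genes had one. Among genes at 10 CPM or more, DEK, a chromatin protein that can load H3.3 (-0.50 ± 0.13), had the smallest unadjusted p of its list. INO80, the ATPase of a nucleosome remodeller (-0.51 ± 0.13), was first in its list, followed by ANP32E, a chaperone that removes H2A.Z (-0.60 ± 0.20). Also first in their lists were ATM, the kinase that phosphorylates H2AX (0.42 ± 0.13), and the chaperone subunit MCM2 (-0.51 ± 0.14). So were the importin IPO4 (-0.89 ± 0.17) and LSM10, a subunit of the U7 particle (-0.58 ± 0.14). The edgeR adjusted p of these named genes ran from 0.110 to 0.199. ANP32E is also in the G2/M list and MCM2 in the S list used for the cell cycle classes.

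The share of H3.3 UMIs that came from H3F3B asks how evenly 2 genes of the same protein are used. It was 48.3%, 51.9% and 45.5% in the HaloTag libraries with 25R, 52R and 70R and 51.6%, 54.0% and 58.8% in the Dendra2 libraries. Over all 5 shares described here, the 95% Clopper-Pearson interval of a value reached at most 0.598 percentage points to either side, which covers counting error only. The means were 48.5% ± 3.21 and 54.8% ± 3.64 (SD, n = 3 each), and the exact two-sided permutation p was 0.2, where 0.1 is the smallest p that 3 against 3 libraries can give. The HaloTag share was the lower one in 3 of 3 pairs of equal CTD length, and an exact sign-flip test over those pairs, chosen after seeing the data, gave p = 0.25, the smallest it can give. The share of H2A.Z UMIs from H2AFV was 22.9%, 28.0% and 30.5% with HaloTag and 29.9%, 18.4% and 21.6% with Dendra2. The groups overlapped, with means of 27.1% ± 3.87 and 23.3% ± 5.90 (SD, n = 3 each) and an exact permutation p of 0.4.

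Replacement genes gave most H3 and H2A UMIs in every library, as far as poly(A) priming counts the cluster genes, and more H1 UMIs than the cluster genes with HaloTag but fewer with Dendra2. The replacement share of H3 UMIs was 99.2%, 98.5% and 99.1% with HaloTag and 93.0%, 91.9% and 93.9% with Dendra2. The replacement share of H2A UMIs was 95.2%, 93.1% and 92.6% with HaloTag and 83.6%, 84.5% and 86.0% with Dendra2. The replacement share of H1 UMIs was 54.0%, 54.6% and 52.6% with HaloTag and 39.2%, 37.9% and 40.7% with Dendra2. In all 3 families every HaloTag library lay above every Dendra2 library, by 5.99, 8.90 and 14.4 percentage points between the means, and each exact two-sided permutation p was 0.1, the smallest possible (0.167 after adjustment over the 5 shares). The denominators hold cluster genes such as HIST2H2AC, an H2A gene, at 37.8 to 71.6 CPM with HaloTag and 182 to 204 CPM with Dendra2. In cells called neither S nor G2/M the differences shrank to 3.63, 6.20 and 9.42 percentage points.

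**Figure D3:**
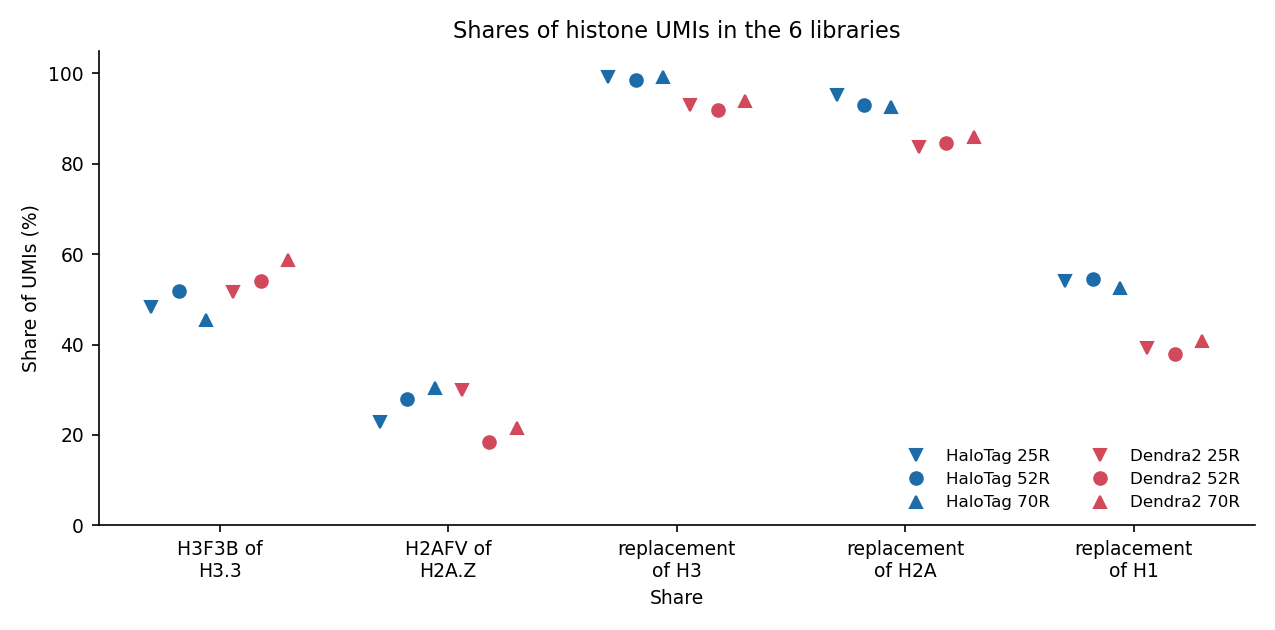
Shares of UMIs in percent, with 1 point per library, for H3F3B among H3.3, H2AFV among H2A.Z, and replacement genes among each histone family. The HaloTag points (blue) lie above the Dendra2 points (red) in the 3 family shares, for example 52.6% to 54.6% against 37.9% to 40.7% for H1, and overlap or interleave in the first 2 shares.

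Across the cell cycle, 7 of the 9 genes changed in cells with S scores and 8 in cells with G2/M scores, against cells with neither. Cells were thinned to 5000 UMIs and classed by summed scores of 43 S and 54 G2/M genes, none of them among the 9, and counts were summed per library and class. The classes are ranges of a score and not types, and 32.2% to 52.0% of cells had an S or a G2/M score within 0.05 of 0. The S class held 29.6% to 33.4% of HaloTag cells and 43.1% to 49.2% of Dendra2 cells, and the class with neither held 42.9% to 49.1% and 24.2% to 32.0%. No doublet caller was run. The edgeR test called 6 genes higher in S cells (21.2% of 13122 genes were) and 1 lower (25.3%), and 7 higher in G2/M cells (23.3%) and 1 lower (27.6%). The median difference was 0.35 in S cells and 0.43 in G2/M cells on the log2 scale, against -0.04 for all genes in both. The 35 cluster histone genes tested had medians of 1.39 and 0.49.

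H2AFX had the largest rise of the 9 genes, at 1.15 ± 0.17 in S cells and 1.87 ± 0.17 in G2/M cells on the log2 scale (edgeR adjusted p 5.98e-06 and 2.89e-09), higher in 6 of 6 libraries in both. In the HaloTag libraries it stood at 35.8, 26.7 and 22.6 CPM in cells with neither score, 97.6, 94.1 and 86.8 CPM in S cells and 148, 199 and 148 CPM in G2/M cells. In the Dendra2 libraries it stood at 74.4, 80.1 and 68.7 CPM, then 108, 122 and 111 CPM, then 158, 174 and 182 CPM. The tags were apart in cells with neither score and overlapped in G2/M cells. The size of the rises depends on how the classes are drawn: with control genes pooled per expression bin, a scoring chosen after seeing the data, H2AFX rose by 2.39 in S cells and 3.23 in G2/M cells, and H2AFZ by 1.15 and 1.36. In G2/M cells the rises of H3F3B (0.34), H2AFV (0.64), H2AFY (0.50), H1FX (1.08) and H1F0 (0.81) were then also larger than those given here. In S cells those of H2AFV (0.43), H2AFY (0.45) and H1FX (0.58) were larger, and that of H1F0 (0.32) was smaller.

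H2AFZ rose by 0.68 ± 0.09 in S cells and 0.75 ± 0.09 in G2/M cells (edgeR adjusted p 2.46e-06 and 4.79e-07). Its level in cells with neither score was 1128, 826 and 628 CPM in the HaloTag libraries and 1317, 1678 and 1524 CPM in the Dendra2 libraries. In G2/M cells it was 1881, 2018 and 1566 CPM with HaloTag and 1578, 2228 and 2217 CPM with Dendra2. H2AFV rose less, by 0.29 ± 0.06 and 0.43 ± 0.06 (edgeR adjusted p 0.000205 and 1.61e-06). H2AFY rose by 0.35 ± 0.05 and 0.32 ± 0.05 (edgeR adjusted p 9.99e-06 and 3.52e-05).

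Both linker genes rose as well. H1FX rose by 0.53 ± 0.05 in S cells and 0.82 ± 0.05 in G2/M cells (edgeR adjusted p 2.88e-08 and 1.97e-11), and H1F0 by 0.44 ± 0.06 and 0.51 ± 0.06 (edgeR adjusted p 2.06e-06 and 2.41e-07), each higher in 6 of 6 libraries. H1FX went from 114, 195 and 210.2 CPM in HaloTag cells with neither score to 223, 388 and 421 CPM in G2/M cells, and from 168, 210.1 and 199 CPM to 242, 327 and 331 CPM with Dendra2. The H3.3 genes moved little. H3F3B rose by 0.26 ± 0.04 in G2/M cells (edgeR adjusted p 2.46e-06), and its difference in S cells was 0.04 ± 0.04. H3F3A fell by 0.08 ± 0.03 in G2/M cells (edgeR adjusted p 0.0193) and was lower in 5 of 6 libraries, and the call was lost with library totals, with unthinned counts, with DESeq2, with pooled control genes and without any 1 of the 3 Dendra2 libraries. H2AFJ fell by 0.20 ± 0.07 in S cells (edgeR adjusted p 0.0273), a call that DESeq2 and 4 of the 6 fits without 1 library did not make.

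**Figure D4:**
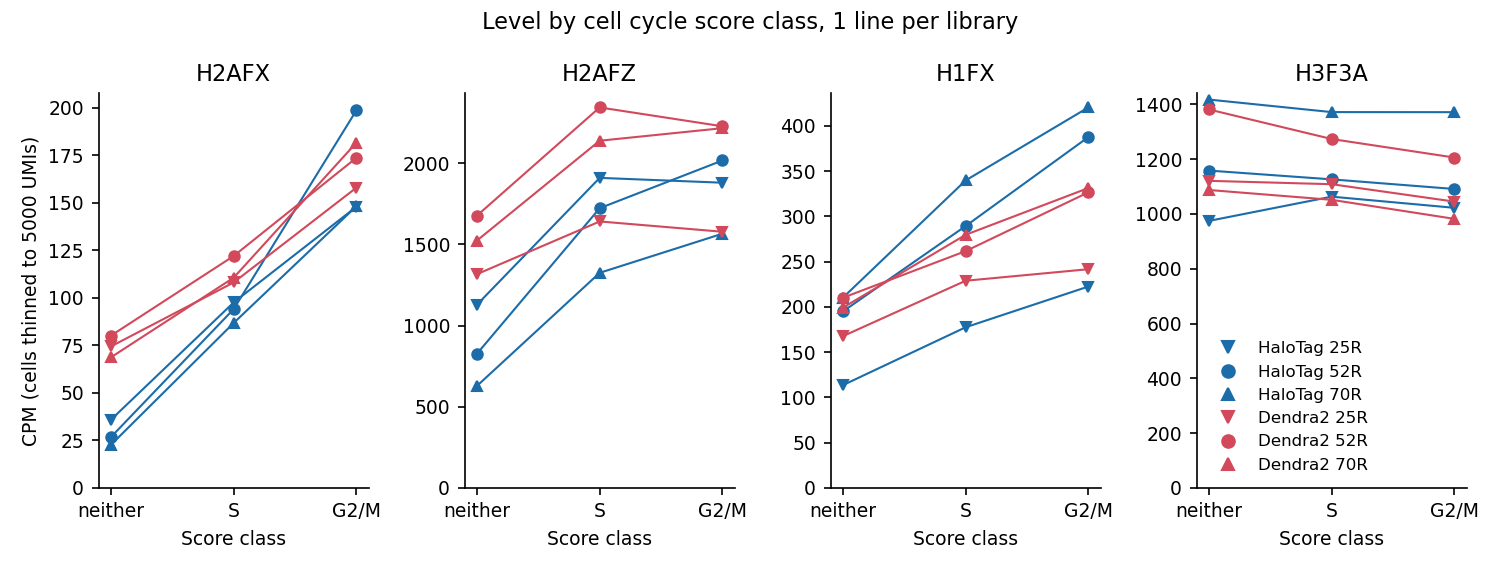
Level in CPM of cells thinned to 5000 UMIs, for cells with neither score, with S scores and with G2/M scores, with 1 line per library (blue HaloTag, red Dendra2). H2AFX, H2AFZ and H1FX are higher in the G2/M class than in the class with neither score in all 6 libraries, and H3F3A is nearly level.

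The rise of several genes was larger with HaloTag than with Dendra2, by an interaction term added to the same edgeR fit after the values were seen (8 residual degrees of freedom). In S cells the term was called for 3 of 9 genes, all higher with HaloTag, against 2.83% of all genes. In G2/M cells it was called for 6 of 9, all higher with HaloTag, against 4.12% of all genes. H2AFX rose by 2.55 in G2/M cells with HaloTag and by 1.20 with Dendra2, a difference of 1.35 ± 0.14 (edgeR adjusted p 8.57e-08), and H2AFZ by 1.11 and 0.40, a difference of 0.71 ± 0.09 (edgeR adjusted p 1.64e-06). H2AFV rose by 0.64 and 0.21, a difference of 0.43 ± 0.06 (edgeR adjusted p 1.52e-05). The term depends on how the classes are drawn. With control genes pooled per expression bin, which moved the G2/M class to between 42.3% and 63.2% of cells, the differences of H2AFZ (0.41) and H2AFV (0.35) in G2/M cells stayed called, at edgeR adjusted p of 0.00351 and 0.00256. That of H2AFX was 0.62 with an edgeR adjusted p of 0.232, and no term in S cells was called. The part of class makeup in these differences was not tested.

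Across single cells, H2AFZ varied most like tubulin genes and H2AFX most like TOP2A, a topoisomerase, and CENPF, a kinetochore protein gene. Pearson correlations were taken within each library between log values of thinned counts, over the 1116 genes that averaged 0.5 UMIs or more per thinned cell, and the values averaged over the 6 libraries; cells of 1 library share their preparation, and these are descriptions. H2AFZ was most like TUBA1B (mean r 0.58, from 0.40 to 0.69), TUBB4B (0.47) and TUBB (0.45), which encode tubulins, then UBE2S (0.43), a ubiquitin enzyme of the anaphase-promoting complex, and PTTG1 (0.41), securin. Among cells with neither score the H2AFZ and TUBA1B value was still 0.58. H2AFX was most like TOP2A, CENPF and UBE2S (0.30, 0.30 and 0.29), then TUBB4B (0.28) and UBE2C (0.27); TOP2A, CENPF, TUBB4B and UBE2C are in the G2/M list. The first gene for H1FX was TOP2A (0.24), and for H1F0 it was H1FX (0.18). H2AFV had TUBA1B (0.28) and H2AFZ (0.26) first, and H2AFY had TUBA1B (0.13). The H3.3 genes differed: H3F3A had PTMA, CFL1 and TMSB4X first (0.23, 0.23 and 0.20) and H3F3B had CCNB1, TUBB4B and UBE2S (0.19 each). H2AFJ had no value above 0.04, at a mean of only 0.137 to 0.321 UMIs per thinned cell, where counting noise limits a correlation.

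The authors' deposited table of bursting gives, per gene and library, a mean, a burst frequency K and a squared coefficient of variation (CV2), each with a lower and an upper value. K equalled 1/(CV2 - 1/mean) to within 1% for 98.3% to 99.7% of the 4355 genes used, and the deposited mean is in UMIs per cell (16.4 for H3F3A in the HaloTag 25R library, as in the matrix). Differences in depth between cells therefore enter K: the inverse of the CV2 of total UMIs per cell was 5.33 to 6.44 in the HaloTag libraries and 4.42 to 5.78 in the Dendra2 libraries. In the authors' deposited table K was 3.14 to 5.37 for H3F3A and 3.31 to 4.23 for H3F3B.

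H2AFX had the lowest K of the 9 genes with HaloTag, and from the authors' deposited table it was 0.988, 0.664 and 0.739 for 25R, 52R and 70R, against 1.59, 1.89 and 1.41 with Dendra2. The groups did not overlap, as for 11.8% of all genes in that direction. The difference on the log2 scale was -1.04 ± 0.21 with a limma adjusted p of 0.0195, and H2AFX was the 1 of 9 genes called lower, against 2.57% of all genes. The call was lost when each library was centred on its median (limma adjusted p 0.0512) and over all 36541 genes with finite values (0.847). It was also lost in 5 of the 6 fits without 1 library, where the limma adjusted p ran from 0.0631 to 0.266. Leaving out either library of a CTD length gave the same difference, so the 6 fits are not independent. Their differences ran from -1.22 to -0.81. K of H2AFZ in the authors' deposited table was 1.99, 1.498 and 1.29 with HaloTag and 2.38, 2.88 and 2.31 with Dendra2. Its groups did not overlap either, and the difference was -0.68 ± 0.19 (limma adjusted p 0.0695). K of H2AFV (-0.39 ± 0.17, limma adjusted p 0.300) and of H1FX (-0.21 ± 0.17, limma adjusted p 0.645) was also lower in every HaloTag library, and that of H3F3A differed by 0.37 ± 0.19 (limma adjusted p 0.423). The median over the 9 genes was -0.21, against 0.0045 for all genes.

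Burst size, the mean over K, was called for 0 of 9 genes by limma, against 9.85% of all genes called lower, with 3 of 9 at an unadjusted p under 0.05, against 30.1% of all genes. From the authors' deposited table it was 3.06, 3.23 and 4.45 UMIs for H3F3A with HaloTag and 5.55, 4.98 and 6.62 UMIs with Dendra2, and the groups did not overlap. The difference of H3F3A was -0.69 ± 0.26 on the log2 scale (limma adjusted p 0.0590). H3F3B, at 4.63, 4.60 and 3.35 UMIs against 5.38, 6.50 and 7.66 UMIs, differed by -0.64 ± 0.26 (limma adjusted p 0.0784), and H1F0 by -0.53 ± 0.27 (limma adjusted p 0.157). With each library centred on its median, H3F3A, H3F3B and H1F0 differed by -0.33, -0.28 and -0.17 (limma adjusted p 0.377, 0.364 and 0.626). Burst size is counted in UMIs, so depth enters it. Mean UMIs per cell were 11612 to 16779 in the HaloTag libraries and 16896 to 19733 in the Dendra2 libraries. The part of depth in these differences was not tested. In 3 of 9 genes all HaloTag libraries lay below all Dendra2 libraries, against 33.2% of all genes, and the median of all genes was itself -0.41, so the members' -0.30 is near the background. The burst size of H2AFX, 1.39, 2.39 and 1.27 UMIs with HaloTag and 1.15, 1.32 and 1.69 UMIs with Dendra2, overlapped.

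**Figure D5:**
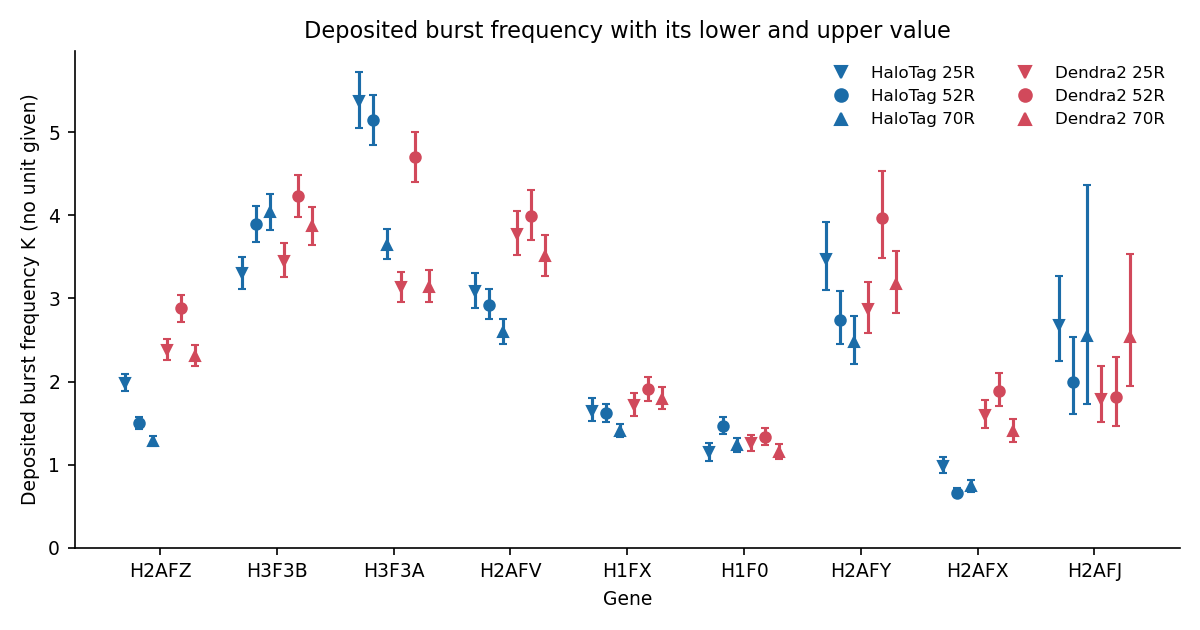
Burst frequency K from the authors' deposited table with its lower and upper value, with 1 point per library (blue HaloTag, red Dendra2). H2AFX (0.664 to 0.988 against 1.41 to 1.89) and H2AFZ (1.29 to 1.99 against 2.31 to 2.88) are separated by tag, and H3F3A, H3F3B, H1F0, H2AFY and H2AFJ overlap.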

How the data were processed

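The deposited counts are UMIs per gene and cell. The file headers name Cell Ranger 6.1.2, and the submitters' processing notes name GRCh38 and bcl2fastq. The annotation and the treatment of reads that map to several genes are not given in the sources used here. The deposited burst tables hold values fitted per library. The 9 members and all gene lists were chosen with earlier results of these data known.

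Barcodes under 500 genes or above 20% mitochondrial UMIs were dropped, and the other cells summed per library (52553686 to 58442223 UMIs). Genes passing filterByExpr (18069) were fitted with edgeR 4.0.16, TMM factors and a model of tag plus CTD length, with 2 residual degrees of freedom; limma 3.58.1 was used for log values of K and of mean over K, in genes averaging 0.5 UMIs or more per cell. Each genotype is 1 library, so no spread between libraries of the same genotype was measured. The error in the tag and CTD tests is how tag differences vary among CTD lengths, moderated across genes. For burst size that moderation was complete: limma took each gene's error from the trend across genes, not from the gene's own spread. In the phase tests it is how phase differences vary between libraries. Phase classes used cells thinned to 5000 UMIs, with 50 control genes for each list gene, and a model of library plus phase with 10 residual degrees of freedom. DESeq2 1.42.0 was an alternative. Named genes other than the members were taken from those with the smallest unadjusted tag p in each list at 10 CPM or more, and from the most highly counted cluster genes. The fits were also run on simulated data. That run gives no measure of their power or error at the differences reported here, and no conclusion is drawn from it. Alternatives covered scaling, filters, thinning, cell classes and each library left out.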

Additional observations from a re-analysis of the deposited data

Results flagged for a closer look

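The rise from cells with neither score differed between tags beyond the test's threshold for 9 values, each given as HaloTag minus Dendra2 on the log2 scale with its edgeR adjusted p. In S cells these were H2AFZ (0.53, adjusted p 0.000199), H2AFV (0.31, adjusted p 0.00109) and H2AFX (1.10, adjusted p 1.16e-05). In G2/M cells they were H2AFZ (0.71, adjusted p 1.64e-06), H2AFV (0.43, adjusted p 1.52e-05), H2AFY (0.30, adjusted p 0.0355), H2AFX (1.35, adjusted p 8.57e-08), H1FX (0.35, adjusted p 0.00172) and H1F0 (0.33, adjusted p 0.0239). The edgeR calls of H2AFX, H2AFZ and H2AFV held in each of the 6 fits without 1 library. The edgeR calls of H1FX, H1F0 and H2AFY held in 5, 3 and 2 of those 6 fits. The comparison was added after the data were seen. With control genes pooled per expression bin, 2 of the 9 values stayed called by edgeR, those of H2AFZ (0.41) and H2AFV (0.35) in G2/M cells. The class with neither score held 42.9% to 49.1% of HaloTag cells and 24.2% to 32.0% of Dendra2 cells, and the part of that in these values was not tested.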

How the results depend on the processing

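With 2 or 3 libraries per group, 1 library can decide a call. Member genes called between HaloTag and Dendra2 went from 0 to 1 with DESeq2's Wald test (1123 of 15967 genes called) and in cells called neither S nor G2/M (110 of 15410 genes called by edgeR), with H2AFX in both. Those between 70R and 25R went from 0 to 1 with DESeq2's Wald test (H2AFJ), where 448 of 16667 genes were called. Between 25R and 52R a call also depended on which library was left out, with the H1F0 difference running from -1.08 to -0.10 on the log2 scale. The 1 gene called for burst frequency went to 0 over all finite genes and when centred on the median of each library, and was 0 to 1 with each library left out. The replacement shares of H3, H2A and H1 UMIs differed by 3.63, 6.20 and 9.42 percentage points in cells called neither S nor G2/M. Among the values named or plotted in the report, reversals were H3F3A between tags with library totals (0.083) and with thinned cells (0.025), H2AFJ between tags with library totals (0.059), H3F3A in S cells with library totals (0.0065), and from 25R to 70R H2AFZ with library totals (0.0067) and H2AFX with thinned cells (-0.018) and in cells called neither S nor G2/M (-0.41). Among fits without 1 library the tag differences ran from -0.19 to 0.10 for H3F3A, -0.17 to 0.14 for H2AFJ, -0.24 to 0.058 for H1FX and -0.40 to 0.13 for H1F0. The differences from 25R to 70R ran from -0.050 to 0.51 for H3F3A, -0.39 to 0.32 for H2AFZ, -0.33 to 0.21 for H2AFV, -0.064 to 0.11 for H2AFX and -0.026 to 0.95 for H1F0. With pooled control genes, chosen after seeing the data, the tag term in G2/M cells was -0.027 for H1FX and -0.12 for H1F0. With each library left out, 6 to 7 genes were called in S cells and 7 to 8 in G2/M cells. No pseudocount was used for K, so that alternative was not run. No paired analysis was possible because the numbers in the labels mark sequencing runs of 1 library. CTD length, which matches 1 HaloTag with 1 Dendra2 library, is a term of the edgeR and limma fits, and an exact sign-flip test of the 5 shares over those 3 pairs gave p of 0.25 to 0.5.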

Other observations

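Counts of thinned cells spread beyond counting noise to different degrees among the 9 genes. The Fano factor, the variance of a gene's UMIs over cells divided by their mean, was 1.95 to 3.28 for H2AFZ over the 6 libraries at a mean of 5.37 to 10.5 UMIs per thinned cell. For H3F3A, at 5.02 to 7.01 UMIs, it was 1.32 to 1.82, and for H3F3B, at 4.53 to 7.42 UMIs, it was 1.51 to 1.72. It was 1.33 to 1.68 for H1FX at 0.771 to 1.51 UMIs, 1.38 to 1.52 for H1F0 at 0.459 to 1.03 UMIs and 1.05 to 1.12 for H2AFY at 0.649 to 0.815 UMIs, and H2AFJ, at 0.137 to 0.321 UMIs, was at 1.09 to 1.14.

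Of 8 other variant histone genes, 3 passed the filter on low counts and 0 were called between tags by edgeR, with 0 at an unadjusted p under 0.05. CENPA, the centromeric H3 variant and a gene of the G2/M list, stood at 57.8, 73.5 and 74.8 CPM with HaloTag and at 94.6, 107 and 73.1 CPM with Dendra2. H2AFY2, the second macroH2A gene, stood at 24.3, 24.8 and 33.3 CPM with HaloTag and at 27.6, 30.7 and 19.8 CPM with Dendra2.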
